A study of Danio rerio with 6 samples.

Results

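The cytosolic ribosomal protein (RP) genes were read across the livers of GW7647- and DMSO-treated zebrafish larvae. A gene was a member if its deposited name, in any case, began with *rpl* or *rps* followed by a digit, or was *rplp0*, *rplp1*, *rplp2*, *rplp2l* or *rpsa*, with the S6 kinase genes and the mitochondrial RP genes left out, and expression was not used to choose members. The rule found 86 of the 25281 genes in the deposited tables. Sorted by name, these were 35 genes of the small 40S subunit, 46 of the large 60S subunit, 4 of the P stalk, and *rps19bp1*. The last encodes an RPS19-binding protein that regulates SIRT1 in mammals and is no ribosomal protein. *rpl7l1*, whose yeast relative acts in 60S assembly, is counted with the 60S by its name alone. *rps20* is not analysed here. The larvae of both groups carried *Tg*(*fabp10a:pt-β-catenin*), in which the hepatocyte promoter *fabp10a* drives a stable Xenopus β-catenin, so all hepatocytes that use the promoter carry the oncogene in the controls too. One group received 1 μM GW7647, an agonist of the nuclear receptor PPARα, and the other received DMSO, the vehicle, for 2 days from 13 to 15 days post-fertilization (dpf), without food during the treatment. Each group has 3 libraries of polyadenylated RNA, numbered 1 to 3, each from dissected livers of many larvae pooled together. Wild-type livers are not analysed here, so the values compare GW7647 with DMSO within transgenic livers only.

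A eukaryotic ribosome is built from ribosomal RNA and ribosomal proteins. Its small subunit decodes the mRNA and its large subunit joins the amino acids, while the P stalk recruits the elongation factors. RP mRNAs are among the most abundant in growing cells, and in vertebrates most begin with a TOP motif, through which the TOR pathway controls how well they are translated. The ribosomal proteins RPL5 and RPL11 also bind the p53 inhibitor MDM2 when ribosome assembly fails.

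Reads counted on exons numbered 19961881 to 25224356 per library, and 12.04% to 15.1% of them fell on the 86 RP genes. Of the 50 genes with the highest mean TPM (a level scaled by exon length and library total), 25 were RP genes, as were 54 of the top 100 and 74 of the top 200. Mean TPM over the 6 libraries ranged from 1.12 to 7653 with a median of 2942 over the members. It was 3293 for the 40S members and 2608 for the 60S members at the median. All members but *rps8b*, *rpl9_1*, *rpl37_1* and *rps19bp1* had at least 1000 exon reads in every library, between 2243 and 151304. DMSO replicate 2 stood apart from the other DMSO libraries in these genes, and the main values are given with and without it.

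No RP gene passed the test for a difference between GW7647- and DMSO-treated livers. All 86 passed the filter on low counts, and edgeR's quasi-likelihood test over 15705 genes called 0 of them higher and 0 lower at an adjusted p of at most 0.05, against 5.5% of all tested genes higher and 3.56% lower. None had an unadjusted p under 0.05 either, against 3938 of the 15705 tested genes, and DESeq2 also called 0 with 0 unadjusted. Without DMSO replicate 2 edgeR again called 0, with 1 unadjusted p under 0.05, for *rps19bp1*, which is no ribosomal protein. Over all 6 libraries the smallest adjusted p was 0.37 (edgeR), for the same gene. Log2 fold changes, GW7647 over DMSO, ran from -0.13 (*rpl36*) to 0.16 (*rps19bp1*). Their median was 0.06 with an SD of 0.06 over the members, and the median of all tested genes was -0.01 with an SD of 0.48. The sign was positive for 69 members and negative for 17 after TMM normalization (a scaling that sets most genes level between libraries), but it was negative for all 86 when counts were divided by library totals alone. A p above the threshold does not show equality, so the intervals were read as well. The 95% confidence interval lay within a 1.5-fold change in either direction for 85 of the 86 and within 1.3-fold for 78. The exception at 1.5-fold was *rps8b*, with 10 to 27 reads per library. These intervals hold for the TMM scale and do not include the error of the scaling.

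**Figure D1:**
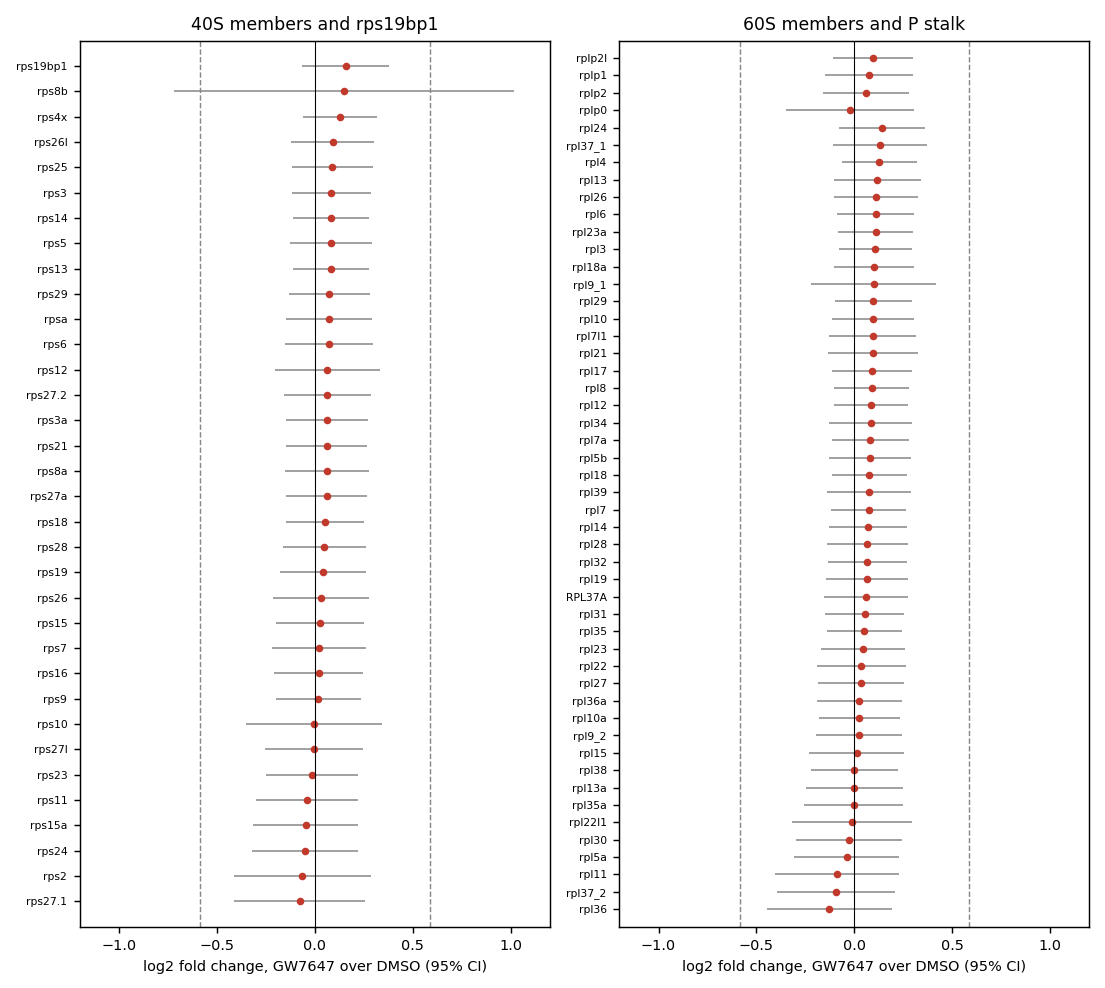
Log2 fold change of the RP genes (2 are not drawn), GW7647 over DMSO, on the TMM scale (point) with its 95% confidence interval (line) from edgeR, for the 40S members and *rps19bp1* (left) and for the 60S members and P stalk (right). Dashed lines mark a 1.5-fold change, and the interval of *rps8b* alone crosses them. On library totals alone all 86 members lie below 0.

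Other abundant genes were read beside the members. Of the 1259 other tested genes with a mean of at least 100 CPM (counts scaled to a common library size after TMM), 327 (26%) were higher and 24 (1.91%) lower in GW7647-treated livers, and their median log2 fold change was 0.20. The 3 GW7647 libraries all lay above the 3 DMSO libraries for 6 RP genes and all below them for 0, against 15.7% and 15.3% of all tested genes. Among the 1259 other abundant genes these shares were 47.4% and 5.8%. The 6 RP genes are *rps4x*, *rpl8*, *rpl3*, *rpl23a*, *rpl4* and *rpl37_1*, and are named here because of their values. They make up 6.98% of the members, which is under the background share, and on library totals alone 0 members lay above.

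The small subunit decodes the mRNA. Its 35 members had a median log2 fold change of 0.06, 27 of them positive, and 32 had an interval within 1.3-fold. *rps7*, which had the highest level of the 40S at 6378 TPM and whose human product can bind MDM2, had 2604, 2606 and 2416 CPM in GW7647 libraries, against 2332, 2855 and 2336 CPM in DMSO libraries. The groups overlapped, with DMSO replicate 2 the highest of the 6 libraries. Its log2 fold change was 0.02 ± 0.11 (SE, n = 3 per group; adjusted p = 0.93, edgeR). *rps3a*, a protein near the mRNA exit, followed at 6209 TPM with a log2 fold change of 0.06 ± 0.09, and *rps2* at 6201 TPM.

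*rps2*, whose product lines the mRNA entry channel, had 4539, 4904 and 4462 CPM in GW7647 libraries, against 3887, 6129 and 4524 CPM in DMSO libraries. DMSO replicate 2 was the highest library and DMSO replicate 1 the lowest, so the GW7647 libraries lay inside the range of the controls. Its log2 fold change was -0.06, with an interval of -0.42 to 0.29. *rps27.1*, a zinc-finger protein of the 40S, gave the lowest value of the subunit, -0.08 (-0.41 to 0.26), with 1165, 1179 and 1102 CPM in GW7647 libraries, against 1083, 1527 and 1028 CPM in DMSO libraries. DMSO replicate 2 was again the highest and the other DMSO libraries were the lowest. At the upper end was *rps4x*, with 2130, 2121 and 2013 CPM in GW7647 libraries, against 1952, 1907 and 1874 CPM in DMSO libraries. The GW7647 libraries all lay above the DMSO libraries for this gene, by 0.13 on the log2 scale (-0.06 to 0.31, adjusted p = 0.38, edgeR). *rps8b* had the largest 40S value, 0.15, at only 0.54, 1.31 and 0.68 CPM in GW7647 libraries, against 0.60, 0.86 and 0.83 CPM in DMSO libraries, and its interval of -0.72 to 1.02 gives no direction. *rps6*, the target of S6 kinase in the TOR pathway and named for that role outside the rule, had a value of 0.07 (-0.15 to 0.30). *rps19*, mutated in human Diamond-Blackfan anaemia, had 0.04 (-0.18 to 0.26). It was among the lowest of the 40S at 681 TPM, a level divided by its exon length of 3579 bases, and had 1418 CPM in GW7647 and 1377 CPM in DMSO libraries on average.

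The large subunit holds the peptidyl transferase centre and the exit tunnel. Its 46 members had a median log2 fold change of 0.07, 38 of them positive, and 42 had an interval within 1.3-fold. *rpl32* had the highest level at 6403 TPM, with 1970, 1931 and 1882 CPM in GW7647 libraries, against 1751, 1986 and 1787 CPM in DMSO libraries. DMSO replicate 2 was above all GW7647 libraries and the other DMSO libraries below them. Its log2 fold change was 0.07 (-0.14 to 0.27), and *rpl7* and *rpl7a*, next in level at 5635 and 5383 TPM, had 0.07 and 0.08.

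*rpl36*, a protein on the outer face of the 60S, had the lowest value of all 86 genes, -0.13 (-0.44 to 0.19, adjusted p = 0.63, edgeR), from 922, 913 and 845 CPM in GW7647 libraries, against 825, 1202 and 901 CPM in DMSO libraries. Its GW7647 libraries lay between the lowest and the highest DMSO library. *rpl37_2*, a zinc-binding protein that contacts ribosomal RNA, had the next lowest, -0.09 (-0.40 to 0.21), with 1249, 1269 and 1084 CPM in GW7647 libraries, against 1141, 1541 and 1161 CPM in DMSO libraries. DMSO replicate 2 again lay above the rest. *rpl24*, whose product forms a bridge to the small subunit, had the highest 60S value, 0.14 (-0.08 to 0.36), with 1081, 1125 and 938 CPM in GW7647 libraries, against 975, 950 and 926 CPM in DMSO libraries. Here GW7647 replicates 1 and 2 were the highest libraries and replicate 3 lay within the DMSO range. *rpl3* and *rpl4*, which reach towards the catalytic centre and the tunnel and are named outside the rule for their separated groups, differed by 0.11 and 0.13. *rpl3* had 4464, 4436 and 4266 CPM in GW7647 libraries, against 4093, 4190 and 3946 CPM in DMSO libraries, so that the lowest GW7647 library lay just above the highest DMSO library.

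*rpl5a* and *rpl5b*, copies of one number, and *rpl11* had log2 fold changes of -0.04, 0.08 and -0.09. The products of RPL5 and RPL11 genes carry 5S ribosomal RNA and bind MDM2, and *rpl11* is named outside the rule for that role. *rpl11* had 1815, 1795 and 1654 CPM in GW7647 libraries, against 1609, 2301 and 1686 CPM in DMSO libraries, and again DMSO replicate 2 alone was above every GW7647 library. The P stalk gave the same picture in its base protein *rplp0*, the most abundant RP transcript at 7653 TPM, with 5235, 5409 and 4701 CPM in GW7647 libraries, against 4510, 6472 and 4611 CPM in DMSO libraries, a difference of -0.02 (-0.35 to 0.30). The dimer-forming *rplp1* (4187 TPM), *rplp2l* (3373 TPM) and *rplp2* (1558 TPM), which bind the elongation factors, had 0.08, 0.09 and 0.06, and none was called.

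DMSO replicate 2 stood apart from the other controls in many members. It was the highest of the 6 libraries for 42 of the 86 genes, whereas DMSO replicates 1 and 3 were each the lowest for 38. Against the mean of DMSO replicates 1 and 3, it was higher by 0.17 on the log2 scale at the median over the members, against 0.003 over all tested genes, and 15 members differed by more than 0.3. The difference was 0.55 for *rps2*, 0.53 for *rps27.1*, 0.51 for *rps10* (a protein near the mRNA entry), 0.51 for *rplp0*, 0.48 for *rpl11* and 0.48 for *rpl36*, but -0.0044 for *rps4x*. The members thus differed among themselves in this library, and all 15 had a negative log2 fold change over the 6 libraries, a value that the same library enters. Without DMSO replicate 2 the log2 fold change on the TMM scale was positive for all 86 members, 0.02 to 0.24 (*rps8b*) with a median of 0.12. This library was singled out for its high values in these genes, so leaving it out raises most of their fold changes by construction. Of the 86, 0 were called (edgeR, 1 with an unadjusted p under 0.05, *rps19bp1*, which also had the smallest adjusted p, 0.22). GW7647 replicate 3 also differed from the other GW7647 libraries, by -0.10 at the median over the members, with 3 of the 86 positive. Without it the median log2 fold change was 0.09, with 76 positive and 0 called (edgeR, 0 with an unadjusted p under 0.05). The exocrine pancreas markers, of which 10 of 14 were tested and 0 called, summed to 28.3 to 35.7 CPM in GW7647 libraries and to 32.9, 113 and 17.96 CPM in DMSO replicates 1, 2 and 3. Immune markers, of which 3 of 13 fell, summed to 128 to 138 CPM in GW7647 libraries and to 144, 184 and 160 CPM in DMSO replicates 1, 2 and 3, and stellate cell markers, of which 4 of 6 fell, to 37.2 to 44.0 CPM in GW7647 libraries and to 69.8, 103 and 82.4 CPM in these DMSO replicates. Without DMSO replicate 2, 0 immune and 1 stellate cell markers were called lower, against 222 of 15836 tested genes. On library totals alone 7 and 6 were, against 2382 of 15705. Each marker found in the tables had reads in at least 1 library, and the part of these markers in the result was not tested.

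**Figure D2:**
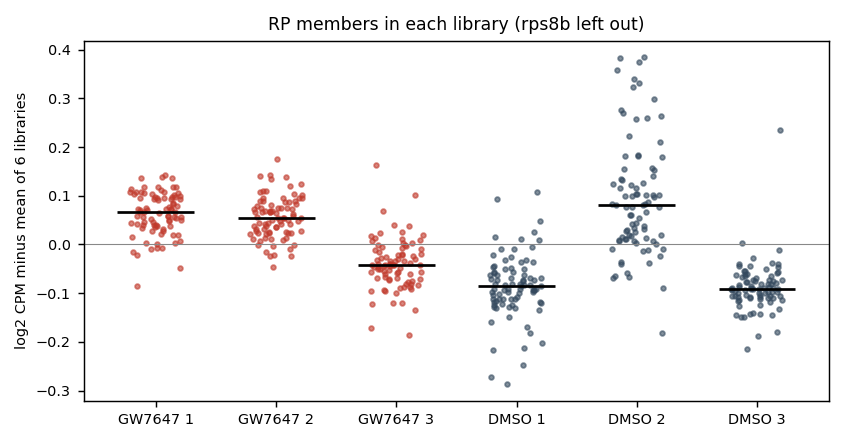
Log2 CPM (TMM) of each RP gene minus its mean over the 6 libraries, by library, with *rps8b* left out and the median as a line. The points of DMSO 2 reach from -0.18 to 0.38, while those of DMSO 1 and DMSO 3 lie mostly below 0. On library totals alone, the medians of the 3 GW7647 libraries lie below 0 and those of the 3 DMSO libraries above 0.

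The share of reads on the RP genes was lower in every GW7647 library than in any DMSO library. Their summed level on the TMM scale, which is not a share of the reads, overlapped between groups. The RP genes took 12.5%, 13.0% and 12.04% of exon reads in GW7647 libraries, against 13.6%, 15.1% and 13.8% in DMSO libraries. The mean was 12.5% ± 0.49 in GW7647 libraries and 14.2% ± 0.81 in DMSO libraries (SD, n = 3 each), a ratio of 0.886. The deposited TPM gave 23.8%, 24.4% and 22.9% in GW7647 libraries, against 25.8%, 26.7% and 26.0% in DMSO libraries. On the TMM scale the summed RP level was 138967, 138481 and 128859 CPM in GW7647 libraries, against 124872, 144041 and 125005 CPM in DMSO libraries, with overlap and a ratio of 1.03. TMM factors were 0.903 to 0.940 in GW7647 libraries and 1.05 to 1.104 in DMSO libraries, so the factors did not overlap between groups.

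On library totals alone the median log2 fold change was -0.16 for the RP genes and -0.23 for all tested genes, against 0.06 and -0.01 with TMM. With TMM the RP median lay below the 0.20 of the 1259 other tested genes with a mean of at least 100 CPM. The RP median lay 0.08 above the median of all tested genes on both scales. A scaling factor shifts all genes of a library nearly alike, so this gap could hardly differ between them. It was -0.007 with limma on log2(RPKM + 1), 0.02 on log2(TPM + 1) and -0.07 with intron reads. On library totals alone all GW7647 libraries lay below all DMSO libraries for 68 members and above for 0, against 37.2% and 5.39% of all tested genes. There 0 members were called (edgeR), against 460 higher and 2382 lower of the 15705 tested genes. An unadjusted p under 0.05 was found for 15 members, all lower. The share of all tested genes at that p is not given here, so the 15 are not read as a fall. Hepatocyte markers, 14 of 21 of which rose and 1 fell, summed to 80051 to 88583 CPM in GW7647 libraries and 48592 to 51195 CPM in DMSO libraries. Markers of biliary epithelial and liver progenitor cells, of which 3 of 12 fell, summed to 11774 to 12243 CPM in GW7647 libraries and to 13478 to 15103 CPM in DMSO libraries. Most of this sum came from *anxa4*, *krt8* and *krt18a.1*, none of which was called (adjusted p = 0.28, 0.42 and 0.17, edgeR). On library totals alone 8 of these 12 were called lower, against 2382 of the 15705 tested genes. Without DMSO replicate 2 (TMM) 0 of the 12 were, against 222 of 15836. The part of the hepatocyte and biliary markers in the RP share was not tested, and in pooled livers fewer cells of a type and less RNA per cell cannot be told apart.

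**Figure D3:**
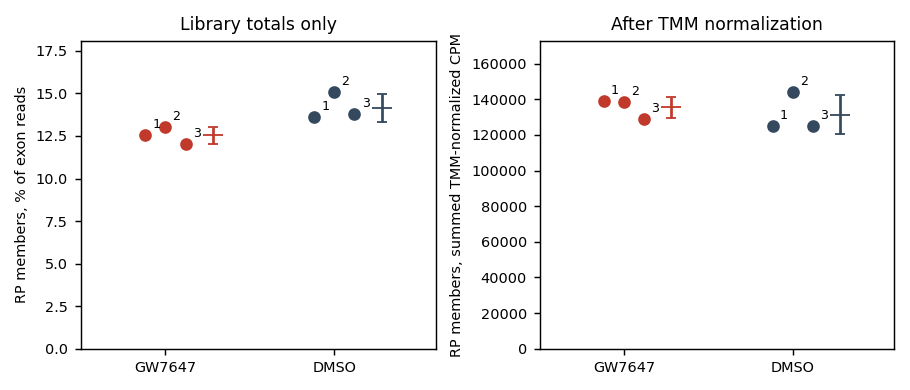
Share of exon reads on the RP genes (left, %) and their summed TMM-normalized CPM (right) in each GW7647 and DMSO library, with replicate numbers and mean ± SD beside the points. The GW7647 points lie below all DMSO points in the left panel, a share of the reads. They lie among the DMSO points in the right panel, a sum that is not a share.

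The subunits were compared as a ratio. The summed TPM of the 60S members over that of the 40S members was 1.14 ± 0.01 in GW7647 libraries and 1.12 ± 0.04 in DMSO libraries (SD, n = 3 each), a difference smaller than the spread between DMSO libraries. The 40S members took 5.17% of exon reads in GW7647 livers and 5.88% in DMSO livers, and the 60S members took 6.53% in GW7647 livers and 7.32% in DMSO livers.

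Zebrafish hold several RP genes in more than 1 copy, and the copies of one number differed widely in level, while no difference between groups in their shares was detectable. *rpl22l1*, the relative of *rpl22* that *Rpl22* holds down in mice, made up 79.3% ± 0.89 of the TPM of the pair in GW7647 libraries and 79.7% ± 1.39 in DMSO libraries (SD, n = 3 each). These shares depend on annotated exon length, by which TPM is divided, 648 bases for *rpl22l1* and 3639 for *rpl22*. In CPM, not divided by length, *rpl22l1* was the lower copy, 556 against 814 in GW7647 libraries and 561 against 794 in DMSO libraries. *rpl5b* made up 43.6% ± 1.5 of the *rpl5* pair in GW7647 libraries and 41.8% ± 3.81 in DMSO libraries, with the lowest share, 37.9%, in DMSO replicate 2. *rps27.2* made up 42.3% ± 0.41 of its pair with *rps27.1* in GW7647 libraries and 40.3% ± 3.01 in DMSO libraries.

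The remaining copies were read likewise. *rps26* made up 67.4% of its pair with *rps26l* in GW7647 libraries and 68.1% in DMSO libraries. Here too the order turned without the division by exon length (436 and 1445 bases). In CPM *rps26* had 381 against 612 for *rps26l* in GW7647 libraries, and 373 against 575 in DMSO libraries. *rplp2* made up 31.4% of the pair with *rplp2l* in GW7647 libraries and 31.8% in DMSO libraries. *rps27l*, induced by p53 in human cells, made up 6.80% of its pair with *rps27.1* in GW7647 libraries and 6.65% in DMSO libraries, and *rpl7l1*, whose yeast relative acts in 60S assembly, 3.83% of its pair with *rpl7* in GW7647 libraries and 3.76% in DMSO libraries. At the bottom, *rpl37_1*, *rpl9_1* and *rps8b* made up 0.173%, 0.167% and 0.026% in GW7647 libraries, and 0.149%, 0.160% and 0.024% in DMSO libraries. The groups overlapped in all 11 comparisons of a copy's share, with exact two-sided permutation p-values of 0.2 to 0.9 and an adjusted p of 0.9 for each, in a design whose smallest possible p is 0.1. The annotated region of *rpl9_1* (chromosome 1, 23243093 to 23274038) overlaps that of *rpl9_2* (chromosome 1, 23269503 to 23274504) on the same strand, in a genome build not given in the sources used here, so reads could be split between them, and only 44.8% of the *rpl9_2* exon reads mapped to 1 place.

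**Figure D4:**
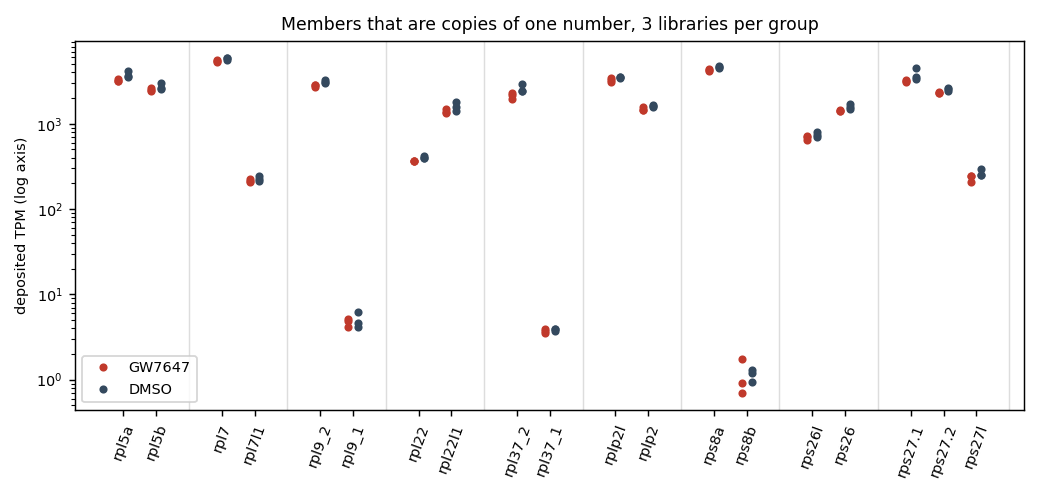
Deposited TPM (log axis) of most RP genes with more than 1 copy, in 3 GW7647 libraries (red, left) and 3 DMSO libraries (dark, right) for each gene, with copies of one number side by side. Within a copy set the levels differ by up to several orders of magnitude (*rps8b* near 1 TPM), and the GW7647 and DMSO points of a gene lie close to each other.

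Further features of the files bear on single members. Mean TPM and annotated exon length were inversely ranked over the 86 members (Spearman -0.565, a description over genes that share the 6 libraries), with exon lengths of 346 to 6824 bases. TPM is itself divided by this length, so an inverse rank is in part built in and is no finding about the genes. *rpl26*, near the exit tunnel, had only 21.1% of its exon reads mapped to 1 place, and 4 members were below 90%. On uniquely mapped reads alone the median stayed at 0.06 with 0 members called (edgeR, 0 with an unadjusted p under 0.05), and *rpl26* had 0.12, against 0.11 on all exon reads. The annotated region of 23 members overlaps another gene, on the same strand for 10. Intron reads were 0.183% to 0.231% of the reads on RP genes in GW7647 libraries and 0.211% to 0.262% in DMSO libraries.

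Genes around the ribosome were read from the same test. The 4 ribosome partners tested (*rack1*, a scaffold on the 40S, and *faua* and *faub*, whose products are a ribosomal protein fused to a ubiquitin-like part and whose names the rule does not match, among them) had 0 calls. The log2 fold change was 0.09 for *rack1*, 0.08 for *faua* and 0.18 for *faub*. Of the 7 RP chaperones, which escort single RPs to the assembling subunits, 0 were called, and *pdcd2*, the RPS2 escort, had the largest value, 0.32 ± 0.11 (SE), and *bccip*, an RPL23 escort in human cells, the smallest, 0.05. Of the 19 TOP-type transcripts outside the ribosome, translation factors for the most part, 0 were called, and their median was 0.11. *eef2b*, the translocase, was highest at 0.30 (adjusted p = 0.080, edgeR) and *btf3* lowest at -0.08. For *eef2b* the libraries gave 9259, 8969 and 8068 CPM for GW7647, against 7473, 6738 and 7139 CPM for DMSO, without overlap. By edgeR, unadjusted p-values under 0.05 were found for 0 partners, 2 chaperones and 3 TOP-type transcripts. On library totals alone the medians were -0.14 for partners, -0.10 for chaperones and -0.11 for TOP-type transcripts, with 0 called. The median of all tested genes was -0.23 on that scale. *eef2b* had 0.08 there (adjusted p = 0.53). Its adjusted p was 0.14 without DMSO replicate 2 and 0.041 with the replicate numbers as a block (edgeR for each).

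Of the 85 ribosome biogenesis genes, 1 rose and 0 fell, with a median of 0.12. The 1 is 1.18% of the list, under the 5.5% of all tested genes that rose. *nol11*, a component of the small-subunit processome, rose by 0.33 ± 0.08 (SE, n = 3 per group; adjusted p = 0.042, edgeR), with 64.0, 69.2 and 66.5 CPM in GW7647 libraries and 51.2, 52.1 and 55.3 CPM in DMSO libraries. All its GW7647 libraries lay above its DMSO libraries, and the largest value of the list, 0.42 for *utp18* of the same complex, missed the threshold (adjusted p = 0.075). The smallest was -0.10, for the methyltransferase gene *emg1*. Of the 12 RNA polymerase I genes, 0 were called (edgeR, 2 with an unadjusted p under 0.05), and *polr1a*, the largest subunit, had 0.28 and *znrd1*, a small subunit, -0.09. Of the 27 genes of the TOR and MYC axes, *eif4ebp3*, a translation repressor of the 4E-BP family, rose by 0.44 (adjusted p = 0.022), and 0 fell. *mych*, a MYC family gene, had 73.8 CPM in GW7647 livers and 110 CPM in DMSO livers on average (adjusted p = 0.083). Its adjusted p was 0.020 on library totals alone, 0.034 with the replicate numbers as a block and 0.16 without DMSO replicate 2 (edgeR for each). *sesn1*, a sestrin that restrains TOR in mammals, had the lowest value of the list, -0.68 (adjusted p = 0.16). Of 9 p53 genes, *tp53inp1*, which acts in p53 responses and autophagy, rose by 0.39 (adjusted p = 0.033), while *phlda3* had -0.91 and *bbc3* 0.53, neither called. None of these 3 rises was called on library totals alone, where *nol11* had an adjusted p of 0.41, *eif4ebp3* 0.12 and *tp53inp1* 0.23, and where the list medians were -0.10 for biogenesis, -0.10 for TOR and MYC and -0.19 for p53 genes. On that scale 5 of the 27 genes of the TOR and MYC axes and 2 of the 9 p53 genes were called lower, against 2382 of the 15705 tested genes. Without DMSO replicate 2 the adjusted p was 0.093 for *nol11*, 0.055 for *eif4ebp3*, so neither was called, and 0.0499 for *tp53inp1* (edgeR for each). With the replicate numbers as a block, 3 biogenesis genes, 1 RP chaperone, 1 RNA polymerase I gene, 1 TOP-type transcript, 7 genes of the TOR and MYC axes and 1 p53 gene were called higher, and 2 and 1 genes of the last 2 lists lower. Over all 15705 tested genes the block gave 1563 higher and 1212 lower.

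The mitochondrial ribosome is a separate particle with its own nuclear-encoded proteins. Of the 76 mitochondrial RP genes, 6 rose and 0 fell, 7.89% against 5.5% of all tested genes that rose. An unadjusted p under 0.05 (edgeR) was found for 38 of the 76, against 3938 of the 15705 tested genes. The median was 0.24, against 0.06 for the cytosolic RP genes, and 75 of the 76 were positive. *mrpl44* rose by 0.45 and *mrpl40* by 0.49 (adjusted p = 0.024 for each, edgeR), and *mrps28* was the lowest at -0.05. All GW7647 libraries lay above all DMSO libraries for 48 of these genes (63.2%, against 15.7% of all tested genes), and for 6 of the 86 cytosolic ones. On library totals alone they did so for 7 of the mitochondrial and 0 of the cytosolic genes, against 5.39% of all tested genes. The number that rose was 18 with the replicate numbers as a block, 2 without DMSO replicate 2, and 0 on library totals alone. Over all tested genes these fits called 1563 of 15705, 536 of 15836 and 460 of 15705 higher. On library totals alone the mitochondrial median was 0.01 and the cytosolic median -0.16. With the block, 0 of the 86 cytosolic genes were called (edgeR, 0 with an unadjusted p under 0.05). The difference between the 2 sets was not tested.

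**Figure D5:**
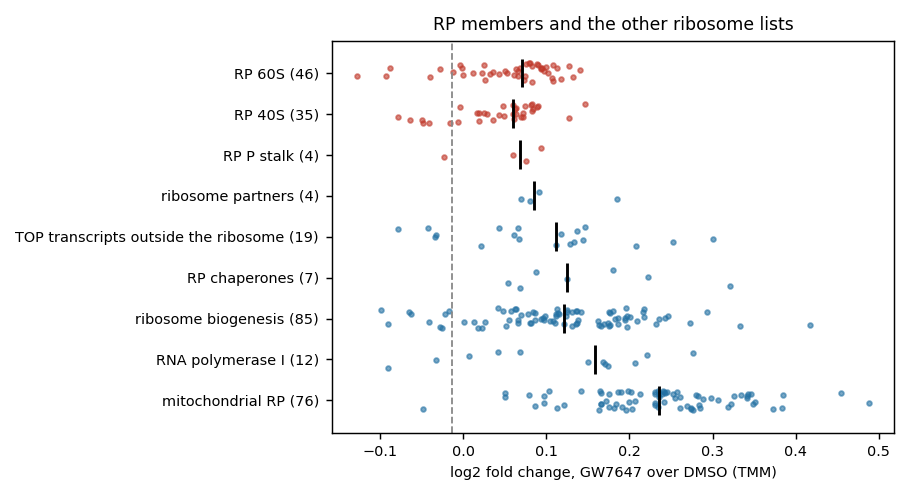
Log2 fold change, GW7647 over DMSO on the TMM scale, of each gene in the 3 RP groups (red) and in the other ribosome lists (blue), with the number of genes in parentheses, list medians as black bars and the median of all tested genes as a dashed line. The cytosolic RP groups centre at 0.06 to 0.07 and the mitochondrial RP genes at 0.24, and on library totals alone the medians are -0.16 for all RP genes and 0.01 for mitochondrial RP genes.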

How the data were processed

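RNA of transgenic larval livers given GW7647 or DMSO was sequenced as 3 libraries per group. The authors mapped paired-end reads in CLC Genomics Workbench and deposited, per gene, the count of reads on exons, not normalized. TPM and RPKM were deposited beside the counts, scaled in the authors' software by exon length and library total, and a fraction of reads in introns or mapped to 1 place. Version, genome build, strand setting and handling of multiply mapped reads are not given in the sources used here, so reads from overlapping genes and near-identical copies may be split or shared. Positions are printed as deposited.

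Counts were compared with edgeR 4.0.16 in R 4.3.3 (quasi-likelihood test, TMM, filterByExpr with a minimum count of 10, no covariate), with Benjamini-Hochberg adjustment over all 15705 genes tested. No model was stated for the study beyond fold and FDR thresholds. Alternatives were DESeq2 1.42.0, limma 3.58.1 on log2(RPKM + 1) and log2(TPM + 1), other normalizations, filters and read classes, a test against a 1.5-fold change, other thresholds, a replicate block and each library left out. The fit of intron reads and the restriction to members with at least 1000 reads were chosen after seeing the data. The tests were tested on simulated data. Plots were drawn with matplotlib 3.10.9 in Python 3.11.15.

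Members and lists were chosen with earlier results of these data known. Of 282 list entries, 6 were not found and 9 were matched through a table of gene identifiers. Members named are those with a copy, the P stalk, those with the 2 largest and 2 smallest fold changes per subunit, since none was called, and the 3 highest and 3 lowest by TPM, and in each list those with the largest and smallest changes and up to 4 more with the smallest p. Planned readings of promoter and protein sequence were not run. Some genes are counted in the lists but are not reported here by themselves. The labels do not say what separates replicates of a group, so p-values measure the spread between these pooled libraries. No 2 of the 15 library pairs held identical counts. Over all tested genes, deviations from the group means correlated at 0.161 to 0.324 for same-numbered libraries and at -0.239 to 0.0754 for the others. Over the RP members the ranges were 0.113 to 0.56 and -0.51 to 0.35, which overlap. The numbers may thus pair the libraries over all genes, which is read from the data alone, and the RP members do not show it clearly. The main test and its intervals do not use this pairing, and the numbers entered only the alternative fit with a replicate block.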

Additional observations from a re-analysis of the deposited data

How the results depend on the processing

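At an adjusted p of at most 0.05, 0 RP genes were called by edgeR, DESeq2 or limma under every alternative run, as at 0.01 and 0.1 with TMM. The direction of the family was not stable. The median log2 fold change of all RP, 40S and 60S genes was -0.16, -0.16 and -0.15 on library totals alone (smallest adjusted p 0.086), -0.15, -0.15 and -0.14 with limma on log2(RPKM + 1), where 3 members had an unadjusted p under 0.05, and -0.12, -0.13 and -0.12 on log2(TPM + 1), where 9 did. All 86 signs were negative in these 3 settings, none of which applies a scaling factor beyond the library total. Over all tested genes they called 2382 of 15705, 1688 of 16856 and 1176 of 17911 lower at an adjusted p of at most 0.05. Upper-quartile normalization gave 0.01, with 50 positive and 36 negative. The log2 ratio of the RP total was -0.18 as a share of exon reads and 0.045 on the TMM scale. Intron reads, an alternative chosen after seeing the data, gave -0.075, -0.092 and -0.069 over 82 members (0 called by edgeR, 2 with an unadjusted p under 0.05). Leaving out 1 library moved the RP median between 0.03 and 0.12. With the replicate block the RP median was 0.06 with 0 called (edgeR, 0 unadjusted, smallest adjusted p 0.22), and the block changed no member's call, while calls over all genes were 1563 higher and 1212 lower, against 864 and 559 without it. The restriction to the 82 members with at least 1000 reads, also chosen after seeing the data, left the median at 0.06. The TMM and library-total fits differ only in the scaling factors. Why these factors differ between the groups, and the cause of the other shifts, was not tested. Depth limits only *rps8b*, whose interval spans more than 1.5-fold.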
